A study of Mus musculus with 82 samples.

Results

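The 31 genes described here encode lysosomal hydrolases other than the cathepsins, together with the protein activators and the acetyltransferase that work beside them. They were taken from a list of gene names, matched without regard to case, and make up 31 of the 78307 gene symbols found across 8 tables of RNA-seq counts from mouse sciatic nerve. Every member was found in all 8 tables and passed the low-count filter in each of the 21 comparisons, so no member was lost from any count given here.

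The 82 libraries came from whole frozen nerves. Fig4 -/- nerves were set against Fig4 +/+ nerves at postnatal day 12 (P12) and, in a separate table, at P4, with 3 libraries of each genotype at each age. Fig4 is a phosphatase of the late endosome and lysosome. Nerves labelled Mitf were taken 3 days post injury or left uninjured, with 4 libraries of each. Nerves labelled Mutant and wild type nerves were taken 3, 7 and 14 days post injury, with 3 libraries of each at each time. A table with Ndrg1 held 5 libraries labelled Mitf-Ndrg1, 5 labelled Ndrg1, 6 labelled Mitf and 6 labelled control. Ndrg1 is a protein of the Schwann cell that myelin maintenance depends on. The other tables set 5 DhhCre against 5 Mitf libraries at P21, 3 Egr2Cre against 3 Mitf libraries at P12, and 3 Egr2Cre Mitf against 3 Mitf libraries of no stated age. DhhCre and Egr2Cre express the recombinase Cre under control of genes that Schwann cells and their precursors use. The labels do not say which gene the Mutant carries, which of the libraries with a lone Mitf label carry an altered Mitf gene, the age of the nerves outside the P4, P12 and P21 tables, or whether each library is a different animal. The p-values therefore rest on a spread among libraries that may be partly technical.

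Library depth ran between 15438783 and 34531474 estimated counts. Levels are given as CPM, read counts scaled to a common library size, and the tables were scaled separately. Fig4 averaged 4.43 ± 1.42 CPM in Fig4 -/- and 22.7 ± 4.06 CPM in Fig4 +/+ nerves at P12 (SD, n = 3 each), and 4.46 ± 0.350 CPM against 30.3 ± 3.04 CPM at P4 (SD, n = 3 each). Ndrg1 averaged 177 ± 12.3 CPM in Mitf-Ndrg1 and 181 ± 11.4 CPM in Ndrg1 nerves (SD, n = 5 each), against 1770 ± 195 CPM in Mitf and 1970 ± 95.5 CPM in control nerves (SD, n = 6 each). Mitf averaged 5.74 ± 1.05 CPM in DhhCre and 19.7 ± 1.69 CPM in Mitf nerves at P21 (SD, n = 5 each). The sum of 10 myelin genes lay between 22600 and 217000 CPM outside the time course and between 701 and 12900 CPM in it. Outside the time course it was lowest in the Egr2Cre Mitf table. There it was 28600 to 33200 CPM in Egr2Cre Mitf and 22600 to 33000 CPM in Mitf nerves. The sample titles of that table name neither injury nor its absence. Skeletal muscle markers passed 30000 CPM in 8 libraries, 4 of them in the time course. Xist and the Y-linked Ddx3y both reached 1 CPM in 28 of the 82 libraries.

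Lysosomal hydrolases take macromolecules apart in an acid compartment, and most are carried there by the mannose 6-phosphate receptors after synthesis in the endoplasmic reticulum. Their loss gives the lysosomal storage diseases, and several of these strike the nerve: Arsa and Galc break down sulfatide and galactosylceramide, the lipids of myelin, and their loss in humans causes metachromatic leukodystrophy and Krabbe disease. Transcription of many of these genes is raised by the MiT/TFE factors Tfeb, Tfe3 and Mitf, which bind E-box letters such as TCACGTGA or TCATGTGA near the start of their targets.

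By role, 10 members degrade sphingolipids, 8 degrade glycosaminoglycans, 4 trim sugars from glycoproteins, and the others act on glycogen (Gaa), lipid esters and phospholipids (Lipa, Pla2g15), peptides and thioesters (Ppt1, Ppt2, Tpp1), phosphate esters (Acp2, Acp5) and DNA (Dnase2a). Levels per kilobase of exon in control nerves of the Ndrg1 table spanned a wide range. Psap, the precursor of the saposins that present sphingolipids to their enzymes, stood at 532 CPM per kilobase, ahead of Hexa at 60.1, Asah1 at 56.6, Ids at 49.0, Gm2a at 48.7 and Ppt1 at 43.0 CPM per kilobase. At the low end were Gla at 2.45, Acp5 at 2.24, Galns at 2.23 and Dnase2a at 1.95 CPM per kilobase. Psap alone made up between 23.1% and 70.8% of the summed CPM of the 31 members in a library, so a sum over the members is weighted toward Psap. Glb1 overlaps Tmppe on the same strand, and Hexa, Idua, Sgsh, Galns, Ppt1, Acp2 and Dnase2a overlap a gene on the other strand. The libraries were stranded per the labels, but whether the counting used the strand is not given in the sources used here, so reads of these pairs may be shared.

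RefSeq (GRCm38.p6) held the promoter window, 250 bases before to 50 bases after the start, of 27 of the 31 members. Gla carried the densest run of the E-box letters among them, and the stretch at chrX:134601163-134601255 is shown from the minus strand because Gla passed the test in 7 of the 21 comparisons, with the 3 matches in capitals (TCACGTGA, TCATGTGA and TCACGTGA, first bases at positions -228, -211 and -195 from the start). Beside it stand 66 bases around the shorter letters CACGTG, in capitals, of a gene that was higher in Ndrg1 nerves (Naglu, chr11:101069991-101070056, plus strand) and of 2 that were lower there (Arsa, chr15:89477405-89477470, minus strand, and Gaa, chr11:119267793-119267858, plus strand), so that members with opposite changes can be read side by side.
Gla: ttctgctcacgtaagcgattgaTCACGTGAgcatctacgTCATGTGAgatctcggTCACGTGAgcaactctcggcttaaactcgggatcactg
Naglu: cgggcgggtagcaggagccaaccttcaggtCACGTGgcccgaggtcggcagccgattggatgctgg
Arsa: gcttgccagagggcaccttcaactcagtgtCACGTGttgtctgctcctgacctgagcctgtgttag
Gaa: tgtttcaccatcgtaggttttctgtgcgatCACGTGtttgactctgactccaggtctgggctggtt

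The motifs were searched on both strands. The 8 letters TCACGTGA stood in 1 of the 27 member promoters (3.70%), that of Gla, and in 304 of 27025 promoters of all genes (1.12%). The core CACGTG, which is part of those 8 letters, stood in 6 member promoters (22.2%), those of Gla, Arsa, Gaa, Glb1, Naglu and Sgsh, and in 8.09% of all promoters. TCATGTGA stood in 4 member promoters (14.8%), those of Gla, Ppt1, Tpp1 and Acp5, and in 1.15% of all promoters. A match describes the letters in this window and says nothing of binding.

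**Figure D1:**
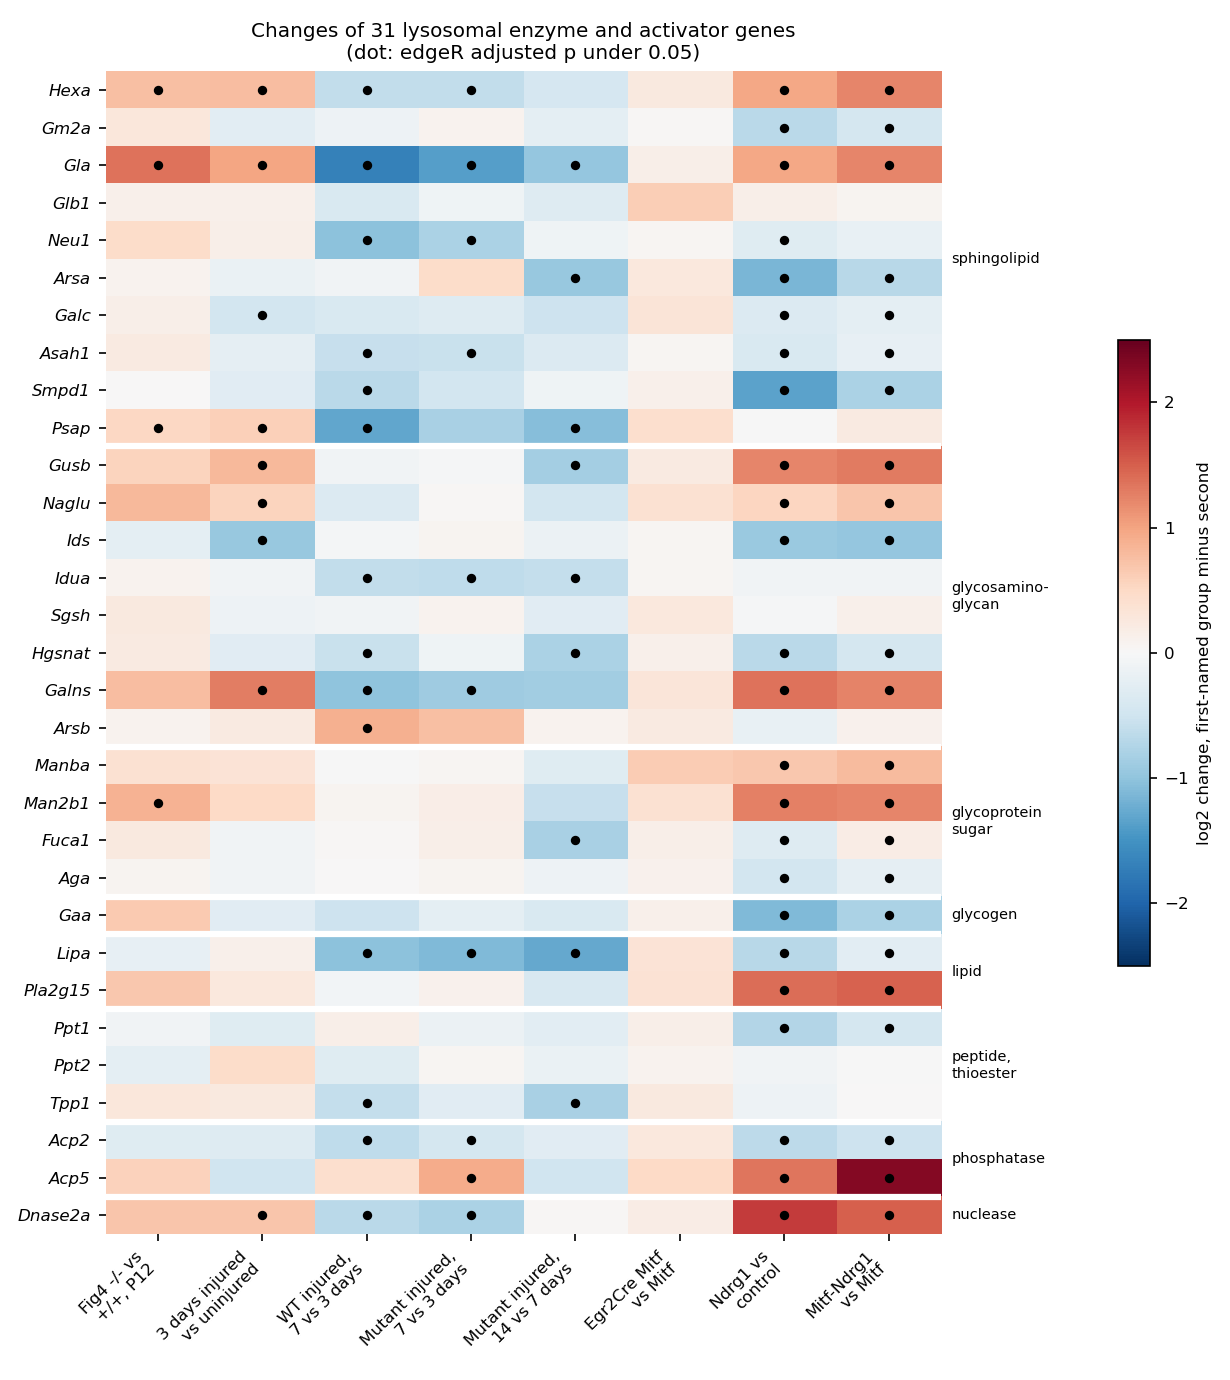
Log2 change of the 31 members (rows, ordered by role) in 8 comparisons (columns), with red for higher, blue for lower and a dot where the edgeR adjusted p was under 0.05. Gla and Hexa carry a dot in Fig4 -/- P12 nerves, after injury and in Ndrg1 nerves, the Ndrg1 column holds 10 members higher and 14 lower, and the Egr2Cre Mitf column holds no dot.

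In Fig4 -/- nerves at P12, 4 of the 31 members were higher and none was lower: Gla, Hexa, Psap and Man2b1. The first 3 serve sphingolipid breakdown, and Man2b1 is the lysosomal alpha-mannosidase of glycoproteins. That is 12.9% of the members, and over all genes tested in this comparison 1.87% were higher and 1.16% lower. The members' median log2 change was 0.25, beside 0.00 over all genes, and 14 of the 31 had groups that did not overlap, as did 23.7% of all genes tested.

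Gla (alpha-galactosidase A, the enzyme missing in Fabry disease; ENSMUSG00000031266, chrX:134588149-134601125, minus strand) stood at 29.7, 24.2 and 25 CPM in Fig4 -/- nerves, against 12.5, 10 and 8.37 CPM in Fig4 +/+ nerves. Hexa (the alpha subunit of hexosaminidase A, which removes the terminal sugar of ganglioside GM2; ENSMUSG00000025232, chr9:59539540-59565109, plus strand) stood at 135, 121 and 146 CPM, against 80.1, 85.3 and 72.6 CPM in Fig4 +/+ nerves. All Fig4 -/- values of both genes lay above all Fig4 +/+ values. The log2 change was 1.35 for Gla (SE 0.210, edgeR adjusted p = 0.00512) and 0.75 for Hexa (SE 0.126, edgeR adjusted p = 0.00841).

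Psap stood at 877, 864 and 840 CPM in Fig4 -/- nerves, against 638, 604 and 562 CPM in Fig4 +/+ nerves, a log2 change of 0.52 (SE 0.113, edgeR adjusted p = 0.0315). Man2b1 stood at 44.7, 38.5 and 52.2 CPM, against 18.8, 29.7 and 25.7 CPM, a log2 change of 0.87 (SE 0.195, edgeR adjusted p = 0.0354). Neither gene's groups overlapped, yet both calls were close to the threshold. Leaving out any 1 of the 6 libraries kept Gla and Hexa past the test, whereas Man2b1 was lost in all 6 such fits and Psap in 5, so that 2 members passed without any of the Fig4 +/+ libraries or without Fig4 -/- replicate 1 or 2, and 3 without Fig4 -/- replicate 3.

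Members just outside the test were Naglu (0.82, adjusted p = 0.0673) and Gusb (0.56, adjusted p = 0.0966 by edgeR), both of glycosaminoglycan breakdown. Acp2, a lysosomal acid phosphatase, had the lowest log2 change of the members, -0.31, with 72.6, 75.0 and 71.8 CPM in Fig4 -/- nerves against 105, 84.0 and 83.2 CPM in Fig4 +/+ nerves, and did not pass the test. Of 12 cathepsin and legumain genes 7 were higher (median log2 change 0.57), with Ctsd at 1.23 (SE 0.137, edgeR adjusted p = 0.000531) and Ctss at 1.56 (SE 0.163, edgeR adjusted p = 0.000302). Of 16 proton pump subunits 2 were higher, Atp6v0d2 by 4.39 (SE 0.266, edgeR adjusted p = 7.40e-06) and Atp6v1b2 by 1.08 (SE 0.129, edgeR adjusted p = 0.000838). Of 16 lysosomal membrane proteins 1 was higher, Cd63 by 1.35 (SE 0.113, edgeR adjusted p = 6.06e-05). None of 13 genes for the delivery and modification of hydrolases (delivery genes below) and none of the 4 MiT/TFE genes passed the test.

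Macrophage markers, all 18 of which were measured, summed to between 1070 and 1420 CPM in Fig4 -/- and between 624 and 767 CPM in Fig4 +/+ nerves, with 10 of the 18 higher. Myelin genes summed to between 93300 and 115000 CPM in Fig4 -/- and between 122000 and 174000 CPM in Fig4 +/+ nerves, with 3 of 10 lower. Their part in the change of the members was not tested; in bulk nerve, fewer cells of a type and less RNA per cell cannot be told apart. The groups also differed in sex markers, with Ddx3y at 20.6, 91.3 and 45.9 CPM in Fig4 -/- and 0 CPM in every Fig4 +/+ library, and Gla and Ids lie on the X chromosome. Skeletal muscle markers summed to between 4.27 and 6.85 CPM in Fig4 -/- and between 12 and 91.7 CPM in Fig4 +/+ nerves. With their level as a covariate 0 members passed the test, and the genes called fell from 435 to 79. The muscle sums did not overlap between the genotypes, so this fit separates muscle from genotype poorly.

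At P4 no member passed the edgeR test between Fig4 -/- and Fig4 +/+ nerves, 1 had an unadjusted p under 0.05, and DESeq2 called 0. Of all genes, 0% were higher and 0.00672% lower, and 126 of 14888 had an unadjusted p under 0.05. Idua, the alpha-iduronidase of heparan and dermatan sulfate, had the highest log2 change, 0.35 (SE 0.271), with 5.46, 4.85 and 8.61 CPM in Fig4 -/- against 5.72, 4.99 and 4.13 CPM in Fig4 +/+ nerves. Acp5, the tartrate-resistant acid phosphatase of macrophages and osteoclasts, had the lowest, -0.30, with 3.68, 4.77 and 10.9 CPM against 12.8, 5.90 and 5.14 CPM, and its sign turned to 0.22 without Fig4 +/+ replicate 1. Both genes' groups overlapped. Gla stood at 13.0, 12.2 and 13.0 CPM in Fig4 -/- against 10.6, 12.5 and 9.52 CPM in Fig4 +/+ nerves at this age (0.23, SE 0.145).

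The test of the difference between the ages, P12 minus P4, called no member by edgeR, while 5 members had an unadjusted p under 0.05 and DESeq2 called 1. Over all genes 0.153% were higher and 0.0145% lower, and 1003 of 13766 had an unadjusted p under 0.05. DESeq2 called 150 genes. Gla had the highest log2 difference, 1.13 (SE 0.262, edgeR adjusted p = 0.186), and Acp2 the lowest, -0.37 (SE 0.250). The Acp2 libraries behind it at P4 held 78.6, 73.1 and 56.3 CPM in Fig4 -/- and 51.8, 72.1 and 74.2 CPM in Fig4 +/+ nerves, which overlap. The larger change of Gla at P12 than at P4 was therefore not established over all genes.

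Injury moved members in both directions. In nerves labelled Mitf and taken 3 days post injury, 7 members were higher than in uninjured nerves and 2 were lower. That is 22.6% of the members higher and 6.45% lower, beside 11.7% of all genes higher and 10.4% lower. The higher members were Hexa, Gla, Psap, Gusb, Galns, Naglu and Dnase2a, and the lower ones Ids and Galc. The median log2 change was 0.12 over the members and 0.03 over all genes, and 8 of the 31 members had groups without overlap, as did 28.4% of all genes tested, so the members stood near the background in this respect.

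Among the sphingolipid enzymes, Hexa stood at 199, 231, 208 and 210 CPM in injured nerves, against 126, 113, 124 and 132 CPM in uninjured nerves (log2 change 0.77, SE 0.111, edgeR adjusted p = 0.00288). Gla stood at 15.7, 16.8, 11.6 and 14.4 CPM in injured nerves, against 8.27, 6.41, 7.95 and 6.77 CPM in uninjured nerves (0.99, SE 0.200, edgeR adjusted p = 0.00872). All injured values of both lay above all uninjured values. Galc, the galactosylceramidase of myelin lipid, fell to 47.4, 37.2, 52.9 and 50.6 CPM, against 64.3, 68.6, 59.3 and 64.1 CPM in uninjured nerves (-0.45, SE 0.128, edgeR adjusted p = 0.0322). Psap rose to 2830, 2100, 1820 and 2060 CPM, against 1460, 1250, 1640 and 1470 CPM in uninjured nerves (0.60, SE 0.186, edgeR adjusted p = 0.0430).

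Among the glycosaminoglycan enzymes, Gusb (beta-glucuronidase; chr5:129989011-130003049, minus strand) stood at 58.3, 83.2, 67.6 and 74.7 CPM in injured nerves, against 44.1, 34.5, 42.5 and 39.0 CPM in uninjured nerves (0.82, SE 0.137, edgeR adjusted p = 0.00427). Ids (iduronate 2-sulfatase; chrX:70343069-70365084, minus strand) stood at 79.5, 93.2, 136 and 121 CPM in injured nerves, against 211, 232, 197 and 192 CPM in uninjured nerves (-0.95, SE 0.173, edgeR adjusted p = 0.00615). Neither gene's groups came close to each other, and they moved in opposite directions, although both enzymes act in the breakdown of heparan and dermatan sulfate. Galns, a sulfatase of keratan sulfate, rose by 1.27 (SE 0.358, edgeR adjusted p = 0.0299), with 9.59, 16.0, 16.0 and 9.54 CPM in injured and 3.96, 3.00, 5.38 and 8.77 CPM in uninjured nerves. Naglu rose by 0.56 (SE 0.154, edgeR adjusted p = 0.0280). Dnase2a, which digests DNA inside lysosomes, rose by 0.70 (SE 0.185, edgeR adjusted p = 0.0241), though its groups overlapped, with 28.5, 35.9, 19.5 and 31.6 CPM in injured and 16.8, 17.4, 19.5 and 17.5 CPM in uninjured nerves.

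Hexa, Gla, Gusb and Ids kept their call in all 8 fits that left out 1 library. The number of members past the test was 4 without uninjured replicate 2 or 3 or without injured replicate 2, 5 without uninjured replicate 1 or 4, and 10 without injured replicate 3. With the replicate number as a block it was 4, and with the skeletal muscle covariate 4. Macrophage markers summed to 1140, 3010, 2230 and 2490 CPM in injured nerves and to 1110, 635, 1250 and 1540 CPM in uninjured nerves, with 5 of 18 higher. Myelin genes summed to 38400, 43100, 95600 and 66300 CPM in injured nerves and to between 108000 and 135000 CPM in uninjured nerves, with 3 of 10 lower. The part of these shifts in the members' changes was not tested.

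The wider lysosomal lists after injury showed 5 of 12 cathepsins higher (median 0.67), among them Ctsd at 1.04 (SE 0.164, edgeR adjusted p = 0.00363), and 8 of 16 proton pump subunits higher (median 0.36), among them Atp6v0d2 at 4.00 (SE 0.446, edgeR adjusted p = 0.00173). Of the 13 delivery genes 1 was lower, Sort1, a sorting receptor that carries prosaposin, at -0.85 (SE 0.216, edgeR adjusted p = 0.0210), and none was higher. Of the 16 membrane proteins 1 was higher and 2 were lower, and none of the 4 MiT/TFE genes passed the test. The median of the members, 0.12, lay below those of the cathepsins and the pump.

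**Figure D2:**
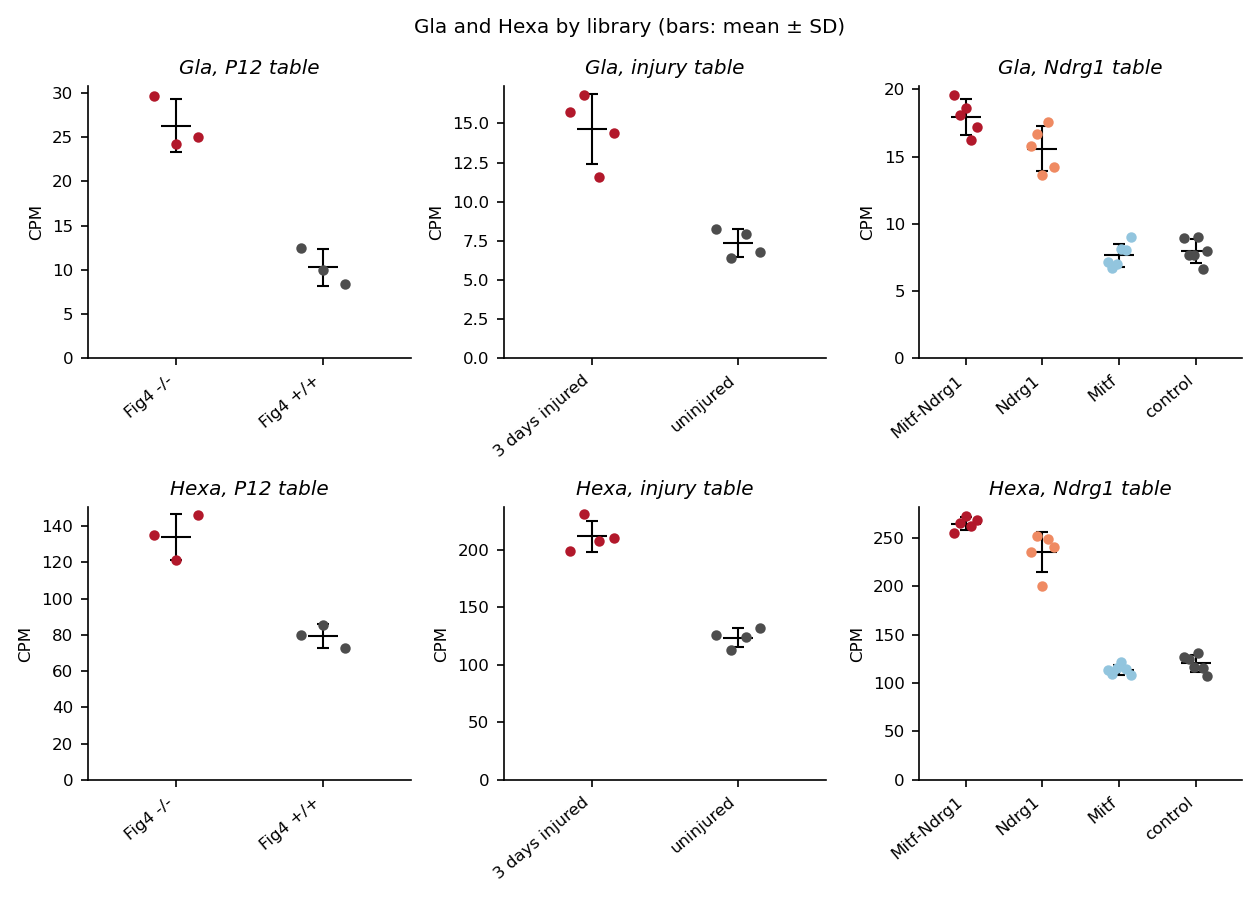
CPM of Gla and Hexa in each library (points) with the group mean and SD (bars) in the Fig4 P12 table, the injury table and the Ndrg1 table, each scaled within its own table. For both genes all Fig4 -/- libraries lie above all Fig4 +/+ libraries, and all injured above all uninjured libraries. All Ndrg1 libraries lie above all control libraries, and all Mitf-Ndrg1 above all Mitf libraries.

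The time course followed the members later after injury. From 3 to 7 days, 13 members were lower and 1 was higher in wild type nerves, which is 41.9% and 3.23% of the members, beside 19.6% of all genes lower and 19.4% higher. Their median log2 change was -0.38, and that of all genes was 0.04. Of the 10 sphingolipid genes 6 fell, of the 8 glycosaminoglycan genes 3 fell and 1 rose, and none of the 4 glycoprotein genes passed the test. The groups of 17 of the 31 members did not overlap, with all 14 called members among them. A call and a lack of overlap rest on the same libraries. The share without overlap over all genes was not counted here, so the count has no background.

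Gla stood at 12.9, 16.5 and 22.5 CPM in wild type nerves at 7 days, against 59.1, 56.2 and 50.6 CPM at 3 days (-1.68, SE 0.299, edgeR adjusted p = 0.000519). Neu1, the sialidase of gangliosides and glycoproteins, stood at 29.8, 28.3 and 33.1 CPM at 7 days, against 58.8, 67.3 and 58.3 CPM at 3 days (-1.02, SE 0.145, edgeR adjusted p = 8.43e-05). Neither gene's 7-day values reached its 3-day values. Hgsnat, the acetyltransferase of heparan sulfate breakdown, stood at 40.5, 37.5 and 36.2 CPM at 7 days, against 55.2, 60.7 and 52.2 CPM at 3 days (-0.56, SE 0.118, edgeR adjusted p = 0.00180). Acp2 stood at 35.5, 43.8 and 41.6 CPM, against 63.5, 66.6 and 58.1 CPM at 3 days (-0.64, SE 0.160, edgeR adjusted p = 0.00547).

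Psap fell to 1590, 2290 and 3240 CPM at 7 days, against 5440, 6720 and 5260 CPM at 3 days (-1.29, SE 0.340, edgeR adjusted p = 0.00759). Lipa, the acid lipase that frees cholesterol from its esters, fell to 119, 163 and 181 CPM, against 318, 326 and 292 CPM at 3 days (-1.02, SE 0.255, edgeR adjusted p = 0.00558). The other members that fell were Galns (-1.0), Dnase2a (-0.68), Smpd1 (-0.67), Hexa (-0.62), Idua (-0.61), Tpp1 (-0.60) and Asah1 (-0.58). Tpp1 is the tripeptidyl peptidase and Asah1 the acid ceramidase. The member that rose was Arsb, the sulfatase of dermatan and chondroitin sulfate, with 31.2, 59.0 and 33.3 CPM at 7 days against 26.7, 19.0 and 21.3 CPM at 3 days (0.88, SE 0.289, edgeR adjusted p = 0.0247). The number called ran from 7 without wild type 3-day replicate 2, through 9 without 7-day replicate 1, to 15 without 7-day replicate 3.

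In Mutant nerves 9 members were lower and 1 was higher at 7 than at 3 days, which is 29.0% and 3.23% of the members, beside 17.2% of all genes lower and 16.2% higher. All 9 were also among the 13 that fell in wild type nerves (100% of 9 and 69.2% of 13). This overlap was not counted over all genes. Gla stood at 11.8, 30.9 and 14.9 CPM at 7 days, against 61.9, 44.9 and 41.6 CPM at 3 days (-1.37, SE 0.296, edgeR adjusted p = 0.00260). Lipa stood at 130, 288 and 148 CPM, against 488, 379 and 357 CPM at 3 days (-1.11, SE 0.256, edgeR adjusted p = 0.00376). Neu1 stood at 29.9, 40.9 and 28.0 CPM, against 67.4, 53.5 and 51.6 CPM at 3 days (-0.80, SE 0.145, edgeR adjusted p = 0.000708). In each of the 3 genes the 7-day library of replicate 2 was the highest of its group, yet it stayed below the 3-day values. Acp5 was the member that rose, to 80.6, 74.2 and 75.7 CPM, against 54.6, 36.0 and 31.2 CPM at 3 days (0.92, SE 0.236, edgeR adjusted p = 0.00743).

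That replicate 2 stood apart as a library: the 31 members summed to 8220 CPM and macrophage markers to 5660 CPM, where the lowest sums of its group were 3940 and 2360 CPM. Replicate 1 of the same group held the highest myelin sum of the time course, 12900 CPM. The number of members called in Mutant nerves was 4 without 3-day replicate 1 or 7-day replicate 3, 5 without 7-day replicate 1, and 12 without 7-day replicate 2. Macrophage markers summed to between 2360 and 5660 CPM at 7 days and between 4040 and 8070 CPM at 3 days in Mutant nerves, with 8 of 18 lower, while 7 of 8 endothelial, 7 of 10 fibroblast, 5 of 10 skeletal muscle and 2 of 6 adipocyte markers were higher and 1 of 10 myelin genes was lower. In wild type nerves they summed to between 4680 and 5490 CPM at 7 days and between 4780 and 5620 CPM at 3 days, with 3 of 18 lower and none higher, while 7 of 10 fibroblast, 3 of 10 skeletal muscle and 2 of 8 endothelial markers were higher and 4 of 6 neutrophil and 7 of 10 myelin genes were lower. With the muscle covariate 9 members passed in Mutant and 13 in wild type nerves, and the part of the other markers was not tested.

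Other lysosomal lists also fell in wild type nerves over this interval. Of 16 proton pump subunits 11 fell and none rose (median -0.75), with Atp6v1b2 at -1.91 (SE 0.148, edgeR adjusted p = 5.67e-07). Of 16 membrane proteins 8 fell and 1 rose (median -0.44), and of 13 delivery genes 6 fell and 1 rose (median -0.35), with Gnptab, which makes the mannose 6-phosphate tag, at -0.87. Cathepsins were mixed, with 4 lower and 3 higher of 12 (median -0.48).

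From 7 to 14 days wild type nerves had 2 members lower and none higher, which is 6.45% of the members lower. Over all genes 4.90% were lower and 2.52% higher, so the count was near the background. Arsa (arylsulfatase A) stood at 22.9, 15.9 and 18.6 CPM at 14 days, against 27.9, 38.6 and 31.2 CPM at 7 days (-0.77, SE 0.209, edgeR adjusted p = 0.0405). Idua stood at 4.34, 4.72 and 4.70 CPM, against 5.38, 7.79 and 8.95 CPM at 7 days (-0.68, SE 0.200, edgeR adjusted p = 0.0499). Neither gene's groups overlapped, but the count was 0 without wild type 7-day replicate 2 or 3 or without 14-day replicate 2 or 3, 5 without 7-day replicate 1, and 0 after removal of the muscle-rich libraries.

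Mutant nerves had 9 members lower and none higher at 14 than at 7 days, which is 29.0% of the members, beside 9.16% of all genes lower and 8.55% higher, with a median of -0.40 over the members and 0.05 over all genes. Hgsnat stood at 31.1, 30.5 and 34.9 CPM at 14 days, against 46.1, 59.4 and 60.8 CPM at 7 days (-0.79, SE 0.119, edgeR adjusted p = 0.00101). Fuca1, the alpha-fucosidase of glycoproteins, stood at 83.7, 83.4 and 89.2 CPM, against 138, 181 and 130 CPM at 7 days (-0.81, SE 0.145, edgeR adjusted p = 0.00247). Lipa stood at 78.7, 61.4 and 92.7 CPM, against 130, 288 and 148 CPM at 7 days (-1.28, SE 0.257, edgeR adjusted p = 0.00463). In none of these 3 genes did the groups overlap. Gusb stood at 64.9, 65.4 and 72.7 CPM, against 103, 161 and 102 CPM at 7 days (-0.85, SE 0.180, edgeR adjusted p = 0.00612). The number called was 5 without Mutant 7-day replicate 2 or 14-day replicate 1 or 2 and 15 without 14-day replicate 3, was 5 without the muscle-rich libraries, and was 0 when the compared groups were fitted alone. In the same step 5 of 8 endothelial markers and 1 of 6 adipocyte markers were lower, and 4 of 10 skeletal muscle markers and 2 neutrophil markers were higher, while none of the 18 macrophage markers passed the test. With the muscle covariate 8 members passed, and the part of the other markers was not tested.

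**Figure D3:**
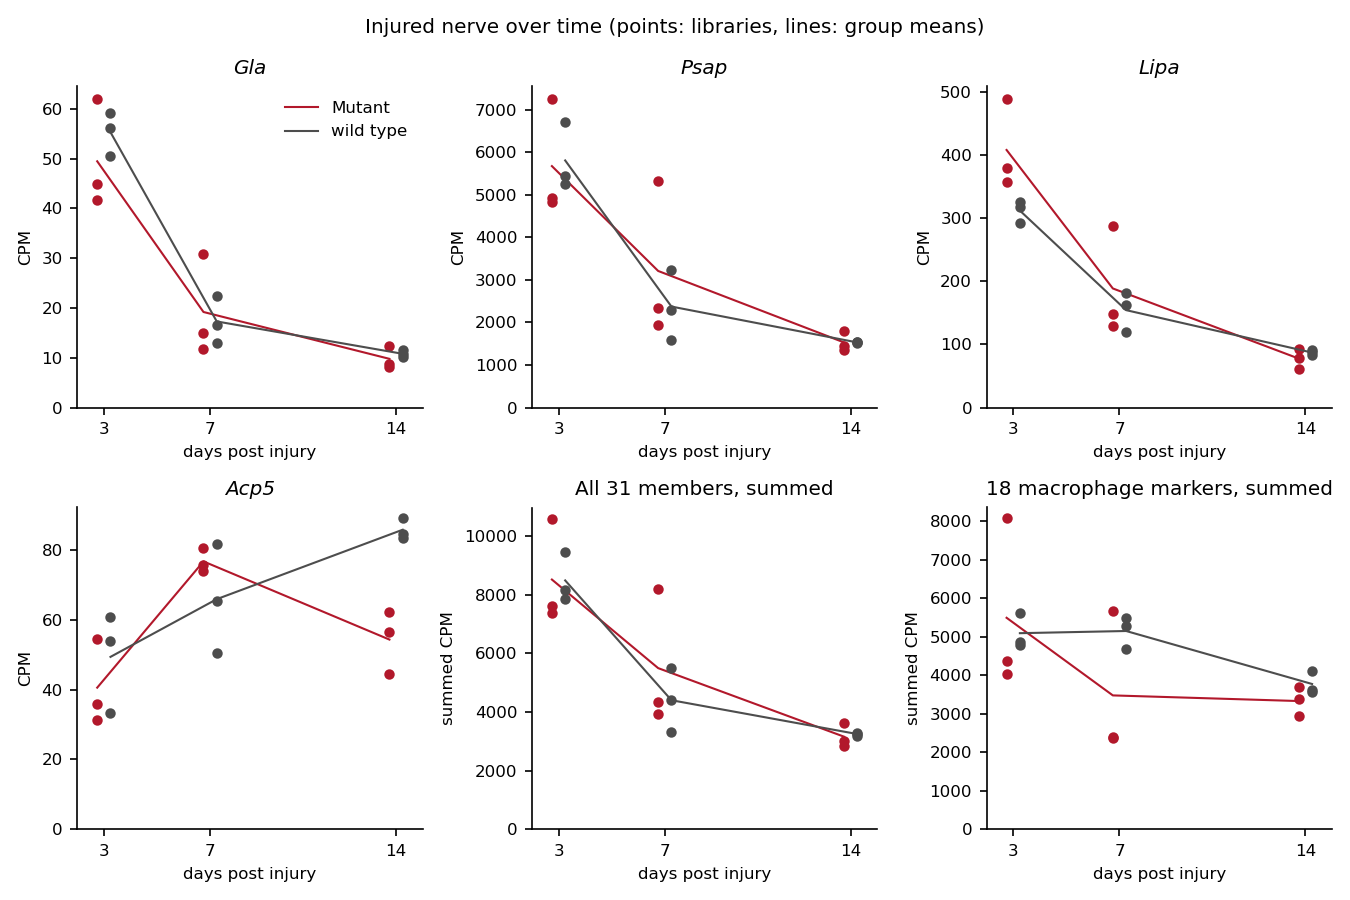
CPM of Gla, Psap, Lipa and Acp5, and the summed CPM of the 31 members and of 18 macrophage markers, at 3, 7 and 14 days post injury in Mutant (red, left) and wild type (grey) libraries, with points for libraries and lines for group means. Gla, Psap and Lipa are highest at 3 days in both genotypes, Acp5 is not, and the Mutant libraries at 7 days include 1 that lies well above the others in Psap and in both sums.

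Mutant and wild type nerves were also set against each other at each time. At 3 days no member passed the edgeR test and DESeq2 called 0, while 0% of all genes were higher and 0% lower. No member had an unadjusted p under 0.05, while 299 of 15852 genes did. Lipa had the highest log2 change, 0.39 (SE 0.253), with 488, 379 and 357 CPM in Mutant and 318, 326 and 292 CPM in wild type nerves, which do not overlap. Acp5 had the lowest, -0.29, with 54.6, 36.0 and 31.2 CPM in Mutant and 33.3, 61.0 and 54.0 CPM in wild type nerves, which do.

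At 7 days edgeR again called no member, and the background was 0% higher and 0% lower. An unadjusted p under 0.05 was held by 4 members and by 2094 of 15852 genes. DESeq2 called 1 member and 241 genes. Hgsnat was highest at 0.54 (SE 0.119, edgeR adjusted p = 0.133), with 46.1, 59.4 and 60.8 CPM in Mutant and 40.5, 37.5 and 36.2 CPM in wild type nerves, without overlap. Dnase2a was lowest at -0.26, with 21.6, 43.4 and 24.3 CPM in Mutant and 32.9, 29.2 and 44.8 CPM in wild type nerves, with overlap.

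At 14 days 7.05% of all genes were higher and 1.24% lower in Mutant nerves. Fitted on these groups alone, 0 genes passed, and without the muscle-rich libraries 1 did. The test called no member by edgeR, and DESeq2 called 1 member and 2313 genes. An unadjusted p under 0.05 was held by 6 members and by 4536 of 15852 genes. Sgsh, the sulfamidase of heparan sulfate, was highest at 0.79 (SE 0.319, edgeR adjusted p = 0.122), with 9.45, 8.55 and 21.9 CPM in Mutant and 8.86, 7.82 and 6.48 CPM in wild type nerves, so that the difference rests mainly on 1 Mutant library. Acp5 was lowest at -0.66 (SE 0.235, edgeR adjusted p = 0.0875), with 62.2, 44.5 and 56.5 CPM in Mutant and 89.4, 83.6 and 84.8 CPM in wild type nerves, without overlap. Muscle markers reached 141000 CPM in Mutant replicate 2 and 113000 and 80800 CPM in wild type replicates 2 and 3, and the count of members was 0 with muscle as a covariate and 0 once the muscle-rich libraries were removed. Without Mutant replicate 2 alone it was 3.

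Whether the time courses of the genotypes differed was tested by the interaction. For 7 against 3 days no member passed by edgeR, DESeq2 called 0, and 0% of genes were higher and 0% lower. An unadjusted p under 0.05 was held by 1 member and by 1020 of 15852 genes. Arsa had the highest log2 difference, 0.55 (SE 0.290), with 47.2, 42.4 and 46.4 CPM at 7 days and 36.4, 32.0 and 30.8 CPM at 3 days in Mutant nerves, and 27.9, 38.6 and 31.2 CPM at 7 days and 34.7, 35.8 and 33.9 CPM at 3 days in wild type nerves. Ppt1, the palmitoyl-protein thioesterase, had the lowest, -0.28. Its 7-day values were 87.2, 99.0 and 72.2 CPM in Mutant and 81.6, 89.4 and 102 CPM in wild type nerves, and its 3-day values were 105, 91.9 and 87.6 CPM in Mutant and 82.8, 82.6 and 82.6 CPM in wild type nerves.

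For 14 against 7 days no member passed by edgeR either, with 0.0694% of genes higher and 0.0252% lower. An unadjusted p under 0.05 was held by 4 members and by 2339 of 15852 genes. DESeq2 called 1 member and 426 genes. Arsb had the highest log2 difference, 0.66, and Acp5 the lowest, -0.88 (edgeR adjusted p = 0.235). Arsb held 35.9, 30.5 and 73.8 CPM at 14 days and 46.2, 38.9 and 47.5 CPM at 7 days in Mutant nerves, and 32.0, 25.4 and 25.7 CPM at 14 days and 31.2, 59.0 and 33.3 CPM at 7 days in wild type nerves. The single high Mutant library at 14 days was the same replicate 3 that held the high Sgsh value. Hgsnat came nearest to the threshold, at -0.82 (SE 0.168, edgeR adjusted p = 0.0556), and the count was 1 without Mutant 14-day replicate 2. The different numbers of members called in the genotypes from 7 to 14 days thus do not show that the genotypes differed.

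Nerves labelled Ndrg1 showed the broadest change. Against control nerves, 10 members were higher and 14 were lower, which is 32.3% and 45.2% of the members. Over all genes 30.8% were higher and 29.7% lower, so the share of members higher was near the background. The median log2 change was -0.12 over the members and 0.02 over all genes, and 20 of the 31 members had groups without overlap, as did 41.9% of all genes tested. The summed CPM of the members overlapped between the groups, at 2940 to 3510 CPM in Ndrg1 and 3170 to 3970 CPM in control nerves, and Psap, its largest part, did not pass the test (-0.01, edgeR adjusted p = 0.910).

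Among members that rose, Dnase2a (chr8:84908560-84922915, plus strand) stood at 33.8, 37.8, 29.3, 38.4 and 36.8 CPM in Ndrg1 nerves, against a lowest value of 7.95, a median of 11.1 and a highest value of 11.9 CPM in control nerves (1.75, SE 0.0997, edgeR adjusted p = 3.60e-13). Gusb stood at 95.7, 93.7, 98.3, 90.8 and 90.5 CPM in Ndrg1 nerves, against a lowest value of 37.5, a median of 39.5 and a highest value of 43.9 CPM in control nerves (1.22, SE 0.0651, edgeR adjusted p = 1.08e-13). The lowest Ndrg1 value of each gene lay well above the highest control value. Man2b1 stood at 112, 104, 90.0, 123 and 126 CPM in Ndrg1 nerves, against 43.0, 46.3 and 50.5 CPM as the lowest, median and highest control values (1.26, SE 0.0834, edgeR adjusted p = 5.43e-12). Pla2g15, the lysosomal phospholipase A2, stood at 33.8, 36.9, 25.6, 36.2 and 36.8 CPM in Ndrg1 nerves, against 11.6, 13.0 and 14.1 CPM as the lowest, median and highest control values (1.39, SE 0.0927, edgeR adjusted p = 5.85e-12).

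Gla rose by 0.96 (SE 0.0992, edgeR adjusted p = 1.03e-08), Hexa by 0.97 (SE 0.0680, edgeR adjusted p = 1.53e-11), Galns by 1.35 (SE 0.142, edgeR adjusted p = 1.40e-08), Manba by 0.67 and Naglu by 0.54, and of these 5 only the groups of Naglu overlapped. Acp5 rose by 1.33 (SE 0.289, edgeR adjusted p = 0.000403), with 11.7, 15.4, 6.23, 11.4 and 12.6 CPM in Ndrg1 nerves, but its groups overlapped because control replicate 1 held 8.60 CPM, where the other controls held 2.82 to 4.46 CPM. Thus the higher members came from each of the sphingolipid (2 of 10), glycosaminoglycan (3 of 8) and glycoprotein (2 of 4) groups, together with Pla2g15, Acp5 and Dnase2a.

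The 14 lower members included 6 of the 10 sphingolipid genes. Smpd1, the acid sphingomyelinase (chr7:105554360-105558389, plus strand), stood at 36.2, 36.0, 25.2, 37.4 and 38.4 CPM in Ndrg1 nerves, against a lowest value of 71.2, a median of 88.3 and a highest value of 101 CPM in control nerves (-1.34, SE 0.10, edgeR adjusted p = 4.68e-11). Arsa stood at 18.2, 14.7, 12.6, 20.8 and 18.5 CPM, against 33.3, 35.4 and 49.5 CPM as the lowest, median and highest control values (-1.14, SE 0.129, edgeR adjusted p = 4.82e-08). Neither gene's groups overlapped. Gaa, the acid alpha-glucosidase of glycogen, fell by 1.10 (SE 0.186, edgeR adjusted p = 2.81e-05) and Ids by 0.92 (SE 0.105, edgeR adjusted p = 5.33e-08). The other lower members were Ppt1 (-0.73), Lipa (-0.69), Gm2a (-0.68), Hgsnat (-0.68), Acp2 (-0.65), Aga (-0.45), Asah1 (-0.39), Galc (-0.34), Fuca1 (-0.32) and Neu1 (-0.31). Gm2a is the activator that Hexa needs for GM2, and it fell where Hexa rose.

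In the same nerves 16 of 18 macrophage markers were higher and 1 was lower, with sums of 4170 to 5270 CPM in Ndrg1 and 639 to 835 CPM in control nerves. All 10 myelin genes were lower, with sums of 48200 to 61700 CPM in Ndrg1 and 159000 to 189000 CPM in control nerves. Of the 8 endothelial markers 7 were lower, and of the 10 fibroblast markers 3 were higher and 5 lower. Their part in the rise of some members and the fall of others was not tested. Cathepsins were 11 higher and 1 lower of 12 (median 0.56), with Ctss at 4.12 (SE 0.113, edgeR adjusted p = 7.40e-19). The proton pump had 9 higher and 4 lower of 16 (median 0.25), with Atp6v0d2 at 5.24 (SE 0.243, edgeR adjusted p = 1.81e-14). Membrane proteins had 1 higher and 9 lower of 16 (median -0.24), with Lamp1 at -0.74 (SE 0.0743, edgeR adjusted p = 7.10e-09), and delivery genes 3 higher and 6 lower of 13 (median -0.16), with Sort1 at -1.56 (SE 0.167, edgeR adjusted p = 2.92e-08). Of the MiT/TFE genes Tfec was higher, by 3.64, and the other 3 did not pass the test.

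The same contrast on the Mitf label, Mitf-Ndrg1 against Mitf, used other libraries. It had 11 members higher and 12 lower, which is 35.5% and 38.7% of the members, beside 29.7% of all genes higher and 27.9% lower. Gusb stood at 85.0, 97.7, 94.3, 100 and 103 CPM in Mitf-Ndrg1 nerves, against 34.1, 39.7 and 42.6 CPM as the lowest, median and highest Mitf values (1.29, SE 0.0651, edgeR adjusted p = 4.10e-14). Hexa stood at 255, 265, 273, 262 and 268 CPM, against 108, 114 and 122 CPM in Mitf nerves (1.22, SE 0.0682, edgeR adjusted p = 2.53e-13). Both genes' groups lay far apart. Pla2g15 stood at 31.5, 37.8, 36.8, 36.5 and 38.0 CPM, against 11.5, 12.9 and 14.7 CPM in Mitf nerves (1.48, SE 0.0927, edgeR adjusted p = 1.98e-12). Dnase2a stood at 35.3, 37.0, 33.1, 28.7 and 31.9 CPM, against 10.8, 11.5 and 13.2 CPM in Mitf nerves (1.50, SE 0.0989, edgeR adjusted p = 5.91e-12).

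All 10 members that were higher in Ndrg1 than in control nerves were also higher here (100% of 10 and 90.9% of 11). Of the 14 lower ones 12 were also lower (85.7% of 14 and 100% of 12). The overlap was not counted over all genes. The 2 that differed were Neu1, which did not pass the test in Mitf-Ndrg1 nerves (-0.18), and Fuca1, which was lower in Ndrg1 nerves and higher in Mitf-Ndrg1 nerves (0.19, edgeR adjusted p = 0.0392). Macrophage markers summed to 4340 to 5700 CPM in Mitf-Ndrg1 and 646 to 814 CPM in Mitf nerves, and myelin genes to 42200 to 70700 CPM in Mitf-Ndrg1 and 149000 to 192000 CPM in Mitf nerves. All 6 adipocyte markers were higher and 6 of 8 endothelial markers lower in Mitf-Ndrg1 nerves, and the part of these markers was not tested.

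**Figure D4:**
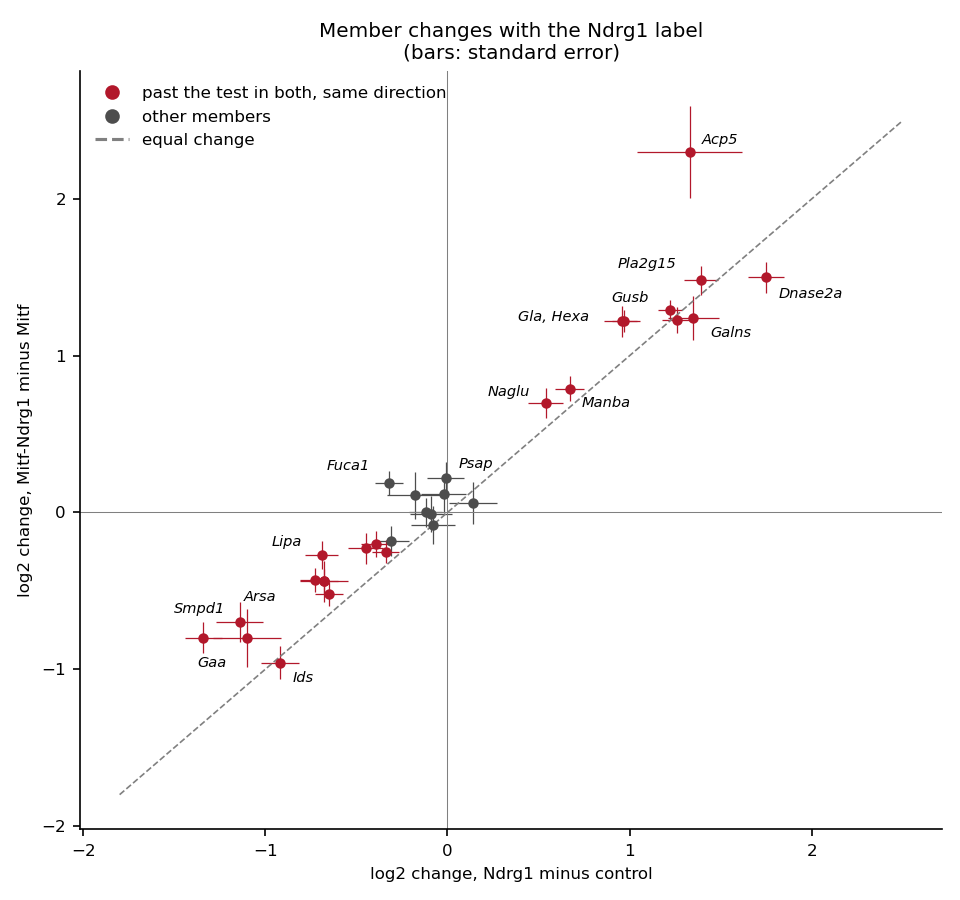
Log2 change of each member in Mitf-Ndrg1 minus Mitf nerves (y axis) against its log2 change in Ndrg1 minus control nerves (x axis), with SE bars, red points for members past the test in both with the same sign, and a dashed line of equal change. The points run along the line, most of them somewhat above it, with 22 members red, and Fuca1 has a negative x value (-0.32) and a positive y value (0.19).

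Mitf-Ndrg1 nerves set against Ndrg1 nerves had 1 member higher and none lower, with 1.07% of all genes higher and 0.402% lower. It was Smpd1, at 38.4, 44.0, 48.4, 50.7 and 48.6 CPM in Mitf-Ndrg1 and 36.2, 36.0, 25.2, 37.4 and 38.4 CPM in Ndrg1 nerves (0.41, SE 0.102, edgeR adjusted p = 0.0441). The groups met at 38.4 CPM. Smpd1 passed the test in only 1 of the 10 fits that left out a library, and the count of members past it was 0 without any of replicates 2 to 5 of either group and 3 without Mitf-Ndrg1 replicate 1.

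The interaction of the Mitf and Ndrg1 labels called 1 member, Fuca1, with 0.289% of all genes higher and 0.101% lower. Fuca1 stood at 85.3, 105, 97.8, 95.2 and 98.4 CPM in Mitf-Ndrg1, at 89.0, 85.4, 63.8, 75.8 and 76.5 CPM in Ndrg1, at 78.8, 82.1 and 93.6 CPM (lowest, median and highest) in Mitf, and at 89.2, 97.6 and 106 CPM (lowest, median and highest) in control nerves. Ndrg1 and control nerves did not overlap, with 89.0 CPM as the highest Ndrg1 and 89.2 CPM as the lowest control value, whereas Mitf-Ndrg1 and Mitf nerves did. The log2 interaction was 0.51 (SE 0.109, edgeR adjusted p = 0.0353), and its adjusted p ran between 0.0151 and 0.0804 when a library was left out, above the threshold in 12 of 22 such fits (without control replicate 1, 2 or 4, Mitf replicate 2, 3 or 6, Ndrg1 replicate 4 or 5, or Mitf-Ndrg1 replicate 2, 3, 4 or 5). The count was 2 without control replicate 3 and 3 without Mitf-Ndrg1 replicate 1. Smpd1 had an interaction of 0.53 (edgeR adjusted p = 0.0719).

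**Figure D5:**
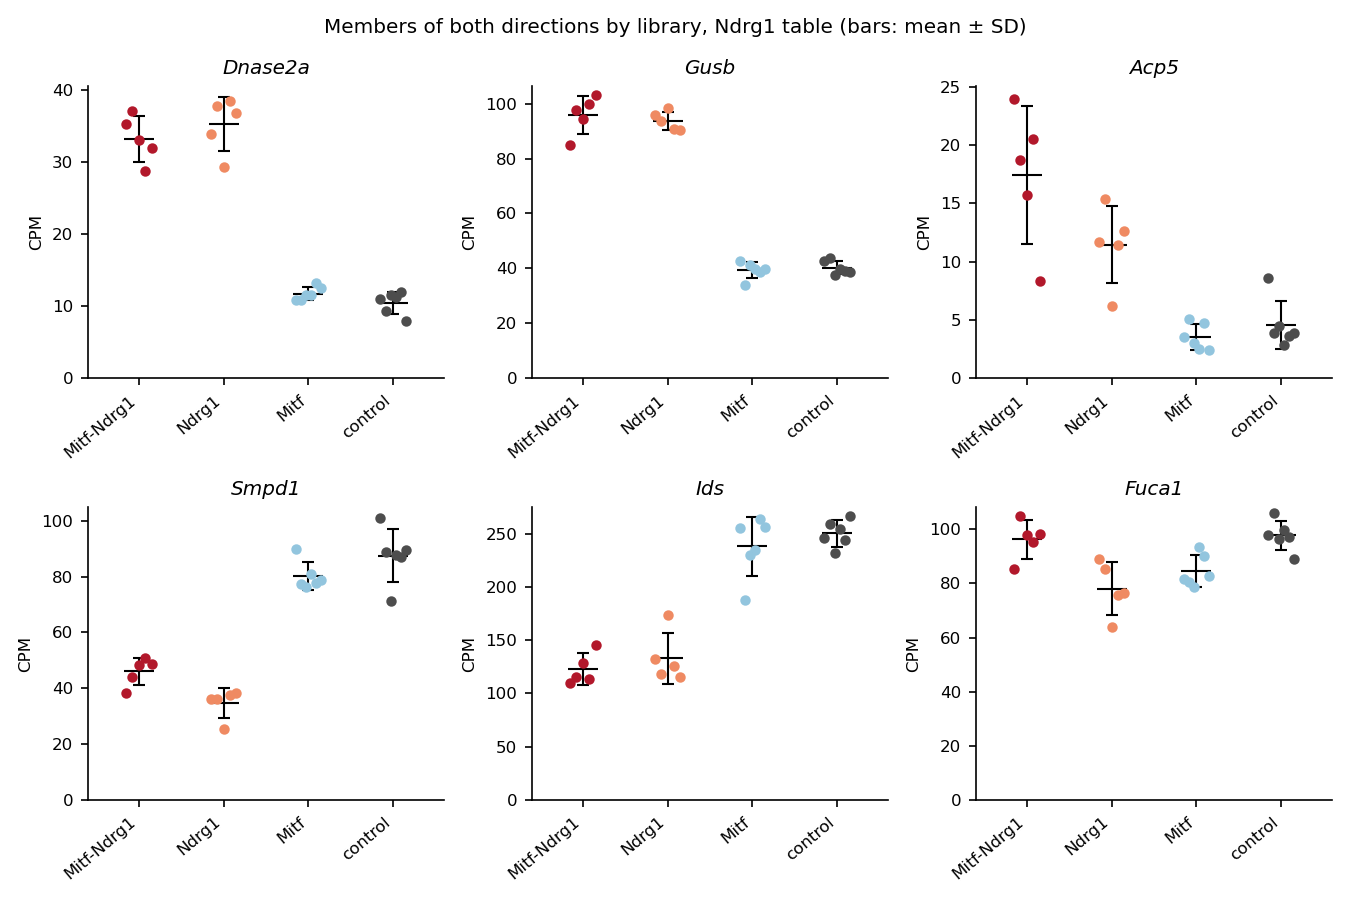
CPM of Dnase2a, Gusb, Acp5, Smpd1, Ids and Fuca1 in each library (points) of the Mitf-Ndrg1, Ndrg1, Mitf and control groups, with the group mean and SD (bars). Dnase2a and Gusb are higher, and Smpd1 and Ids lower, in the groups with an Ndrg1 label, while Fuca1 lies between 63.8 and 106 CPM in all 4 groups.

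Comparisons of the Mitf label with a control, DhhCre, Egr2Cre or Egr2Cre Mitf label showed no called member. Mitf against control nerves in the Ndrg1 table had 0 members past the edgeR test and 0 by DESeq2. Of all genes 0% were higher and 0.00629% lower. An unadjusted p under 0.05 was held by 1 member and by 994 of 15910 genes. Galns was highest at 0.22 (SE 0.137), with 6.22, 6.70 and 8.09 CPM as the lowest, median and highest Mitf values and 4.41, 5.76 and 7.39 CPM as those of control nerves. Acp5 was lowest at -0.36 (SE 0.284), with 2.45, 3.28 and 5.06 CPM in Mitf and 2.82, 3.87 and 8.60 CPM in control nerves. Both overlapped. Mitf itself averaged 12.2 ± 1.66 CPM in Mitf and 18 ± 2.19 CPM in control nerves (SD, n = 6 each).

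DhhCre against Mitf nerves at P21 had 0 members past the edgeR test and 0 by DESeq2, with 0% of all genes higher and 0.0143% lower. An unadjusted p under 0.05 was held by 1 member and by 408 of 13943 genes. Neu1 was highest at 0.15 (SE 0.0666, edgeR adjusted p = 1.00), with 40.2, 40.4, 47.3, 44.3 and 39.6 CPM in DhhCre and 35.8, 39.6, 40.5, 36.6 and 38.4 CPM in Mitf nerves. Acp5 was lowest at -0.49 (SE 0.324), with 7.33, 4.19, 9.25, 12.8 and 7.35 CPM in DhhCre and 10.3, 14.5, 14.1, 13.6 and 5.32 CPM in Mitf nerves. The groups of both genes overlapped. Mitf itself was lower in DhhCre nerves, with a log2 change of -1.77 (SE 0.124, edgeR adjusted p = 2.95e-05).

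Egr2Cre against Mitf nerves at P12 likewise had 0 members past the edgeR test and 0 by DESeq2. Of all genes 0.0139% were higher and 0% lower. An unadjusted p under 0.05 was held by 1 member and by 371 of 14415 genes. Arsa was highest at 0.19 (SE 0.170), with 31.9, 25.7 and 30.8 CPM in Egr2Cre and 22.2, 32.5 and 22.5 CPM in Mitf nerves. Manba, the beta-mannosidase of glycoproteins, was lowest at -0.26 (SE 0.126, edgeR adjusted p = 1.00), with 12, 12.9 and 13.0 CPM in Egr2Cre and 17.4, 14.5 and 13.4 CPM in Mitf nerves. Arsa's groups overlapped and those of Manba did not, by a narrow margin. Mitf averaged 8.45 ± 1.50 CPM in Egr2Cre and 14.0 ± 0.452 CPM in Mitf nerves (SD, n = 3 each).

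Egr2Cre Mitf against Mitf nerves had 0 members past the edgeR test and 0 by DESeq2. Of all genes 0% were higher and 0% lower. Yet 6 members had an unadjusted p under 0.05, as did 671 of 15482 genes. The log2 change was positive in all 31 members, with a median of 0.23 beside -0.01 over all genes. Manba was highest at 0.63 (SE 0.120, edgeR adjusted p = 0.846), with 33.6, 31.9 and 27.0 CPM in Egr2Cre Mitf nerves and 20.9, 18.8 and 19.8 CPM in Mitf nerves, without overlap. Gm2a was lowest at 0.02, with 163, 160 and 147 CPM in Egr2Cre Mitf nerves and 175, 146 and 142 CPM in Mitf nerves, and its sign turned to -0.04 with the muscle covariate. The other 5 under 0.05 were Glb1 (the beta-galactosidase of ganglioside GM1, 0.62, SE 0.160), Naglu (0.39), Man2b1 (0.38), Galc (0.32) and Acp2 (0.26). Macrophage markers summed to between 3060 and 3340 CPM in Egr2Cre Mitf nerves and between 2010 and 3140 CPM in Mitf nerves, and muscle markers to between 19700 and 30400 CPM in Egr2Cre Mitf nerves and between 17500 and 76300 CPM in Mitf nerves. Mitf averaged 8.06 ± 1.60 CPM in Egr2Cre Mitf nerves and 11.0 ± 0.868 CPM in Mitf nerves (SD, n = 3 each). Members share these 6 libraries, so the count of positive signs has no more independence than the libraries. With the muscle covariate 0 members passed, as in the main fit, which does not bear on the signs. The part of the macrophage markers was not tested.

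Across comparisons that share no library, Hexa and Gla were the members past the test in the same direction in Fig4 -/- nerves at P12, after injury and in Ndrg1 nerves. Injury and Ndrg1 shared 6 higher members, Hexa, Gla, Gusb, Naglu, Galns and Dnase2a (85.7% of the 7 after injury, 60% of the 10 in Ndrg1 nerves), and 2 lower ones, Galc and Ids (100% of 2, 14.3% of 14). Fig4 at P12 and injury shared Hexa, Gla and Psap (75.0% of 4, 42.9% of 7). Fig4 at P12 and Ndrg1 shared Hexa, Gla and Man2b1 (75.0% of 4, 30% of 10). The Fig4 calls of Psap and Man2b1 were lost in most fits that left out a library. These overlaps were not counted over all genes, of which the Ndrg1 contrast alone had 30.8% higher and 29.7% lower. Of the 7 members higher 3 days after injury in Mitf nerves, 5 were lower at 7 than at 3 days in wild type nerves. They were Hexa, Gla, Psap, Galns and Dnase2a. The time course held no uninjured nerves, and the 3-day nerves were unlike. At 3 days myelin genes summed to 38400 to 95600 CPM in Mitf and 2820 to 3600 CPM in wild type nerves. Macrophage markers summed to 1140 to 3010 CPM in Mitf and 4780 to 5620 CPM in wild type nerves. The same order of calls was not counted over all genes. Glb1, Sgsh and Ppt2 passed the test in none of the 21 comparisons.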

How the data were processed

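The unit of the authors' deposited tables is the estimated count per gene, from kallisto on mm10 per the submitters' processing notes (its version, the annotation and how transcripts were summed to genes: not given in the sources used here). Whole values made up 34.8% to 89.0% of a table, and counts were rounded before testing. Per the labels' protocols, RNA from frozen nerve was made into stranded poly(A) libraries. Columns of other samples numbered 0.

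Tests were run inside 1 table at a time, and the P12 and P4 Fig4 tables shared a fit only for the difference between ages. After filterByExpr (minimum count 10) and TMM scaling, edgeR 4.0.16 in R 4.3.3 gave robust quasi-likelihood F tests, two-sided, called at a Benjamini-Hochberg adjusted p under 0.05 over all genes of a comparison. All groups of the time course, and all of the Ndrg1 table, entered a common fit. A log2 change is given for the group named first over the one named second. Its SE is its size over the square root of F. The precision of each value is the spread between libraries.

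All 31 members may be named. Values per library are given for the 4 with the smallest p past the test, for an interaction past it, and for the highest and lowest change where none passed; the other values printed were chosen after they were seen. The members and lists were chosen with earlier results of these data known. Gene positions are those of GENCODE vM21 on mm10. Promoter windows and site positions count from the RefSeq start, which need not be the GENCODE start. Among others it differs for Gla, Naglu, Gaa and Sgsh.

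No pair of libraries held the same counts (lowest chi-square per degree of freedom 9.60). Deviations of same-numbered libraries correlated over 0.1 in every pair of the DhhCre table (0.111 to 0.358) and of the Egr2Cre Mitf table (0.211 to 0.482), a hint of pairing from the data. The alternatives tried were RLE scaling, the DESeq2 1.42.0 test, testing unfiltered genes, a replicate block, the compared groups alone, each library left out, a muscle covariate and removal of muscle-rich libraries (over 30000 CPM). Outside the Fig4 tables, both muscle alternatives were added after seeing the data. Figures were drawn with matplotlib 3.10.9.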

Additional observations from a re-analysis of the deposited data

Results flagged for a closer look

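Over all tables, 38 pairs of a member and a group of 4 to 6 libraries were examined for a library far from the others. Chance flags about 1 in 20 groups, and all 4 that were found lie in the Ndrg1 table. Acp5 held 8.60 CPM in control replicate 1, where the next highest control held 4.46 CPM. Pla2g15 held 25.6 CPM in Ndrg1 replicate 3, where the next lowest held 33.8 CPM, and 31.5 CPM in Mitf-Ndrg1 replicate 1, where the next lowest held 36.5 CPM. Smpd1 held 25.2 CPM in the same Ndrg1 replicate 3, where the next lowest held 36.0 CPM.

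For Fuca1 the interaction of the labels, Mitf-Ndrg1 minus Mitf set against Ndrg1 minus control, passed the test. It came to a log2 difference of 0.51 (SE 0.109, edgeR adjusted p = 0.0353). The call was lost in most fits that left out a library.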

How the results depend on the processing

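RLE scaling and the fit without the low-count filter kept the number of members past the test within 1.5 times in every comparison but wild type 14 against 7 days, where both gave 1 in place of 2. DESeq2 gave 5 there, 3 for Mitf-Ndrg1 against Ndrg1, 2 for the interaction of the Mitf and Ndrg1 labels, and 1 for the Fig4 age difference, Mutant against wild type at 7 and at 14 days, and genotype by time from 7 to 14 days. With the replicate block the count was 4 for injury, 0 for wild type 14 against 7 days, 3 for Fig4 at P12, 14 and 9 for 7 against 3 days in wild type and Mutant, 6 for Mutant 14 against 7 days, 24 for Ndrg1 and 20 for Mitf-Ndrg1 against Mitf. The block changed no count in the 2 tables with a hint of pairing, which stayed at 0. The compared groups alone gave 0 for 14 against 7 days in wild type and in Mutant and 0 for Mitf-Ndrg1 against Ndrg1. The muscle covariate gave 0 for Fig4 at P12, 4 for injury and 1 for wild type 14 against 7 days. It gave 1 for genotype by time from 7 to 14 days and 0 for Mitf-Ndrg1 against Ndrg1. For Fig4 at P12 the muscle sums did not overlap between the genotypes, and the genes called fell from 435 to 79. Without muscle-rich libraries the counts for 14 against 7 days were 0 in wild type and 5 in Mutant. The cause of these shifts was not tested.

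With 1 library left out, the counts ran between 2 and 3 for Fig4 at P12, 4 and 10 for injury, 0 and 3 for Mutant against wild type at 14 days, 7 and 15 and then 0 and 5 for wild type 7 against 3 and 14 against 7 days, 4 and 12 and then 5 and 15 for the same steps in Mutant, 0 and 1 for genotype by time from 7 to 14 days, 0 and 3 for Mitf-Ndrg1 against Ndrg1, and 0 and 3 for the interaction of the labels. Changes near 0 turned their sign: Acp5 in Fig4 nerves at P4 ran between -0.90 and 0.22 without single libraries, and Gm2a in Egr2Cre Mitf nerves was -0.04 with the muscle covariate and between -0.03 and 0.11 without single libraries.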
